A study of Mus musculus with 55 samples.

Results

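The 7 genes described here code for proteins of steroid and retinoid synthesis: Star, Cyp11a1, Cyp17a1, Hsd3b1, Hsd17b1, Cyp19a1 and Aldh1a1. They were taken by symbol from a list and followed in every single-oocyte RNA-seq library, and all 7 were among the 51734 genes of the deposited tables. The study compared fully grown oocytes (FGOs) of mice whose DNMT3A, DNMT3L or both carry substitutions that disable the ADD domain, the part that reads histone H3 unmethylated at lysine-4. Libraries came from 18 wild-type FGOs, 8 FGOs homozygous for the Dnmt3L mutation (Dnmt3L ADD/ADD, called Dnmt3L mutants), 8 for the Dnmt3a mutation (Dnmt3a ADD/ADD, called Dnmt3a mutants) and 8 for both [Dnmt3a ADD/ADD, Dnmt3L ADD/ADD], called double mutants. A further 10 came from wild-type MII oocytes, the mature stage at metaphase of the second meiotic division. Each library held the RNA of 1 oocyte, amplified with the SMART-Seq HT kit. The mice that gave the FGOs were 10 to 12 weeks old. Ovaries were punctured to release the FGOs, and a wash step stripped the cumulus cells. They were pooled before storage according to the study's methods, so an oocyte cannot be traced to its mother, and p-values measure the spread between oocytes. The mutant alleles are carried by the whole animal and not by the oocyte alone. How the MII oocytes used for RNA were obtained, and from mice of what age, is not given in the sources used here. The hormone treatment in the methods is stated for in vitro fertilization.

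In the ovary, steroids are made by the cells around the oocyte. Theca cells turn cholesterol into androgen, and granulosa cells turn androgen into oestrogen under the control of pituitary hormones. STAR carries cholesterol into mitochondria, where CYP11A1 cuts its side chain to give pregnenolone. The 3-beta-hydroxysteroid dehydrogenase HSD3B1 makes progesterone from pregnenolone, CYP17A1 leads on to androgens, HSD17B1 reduces oestrone to oestradiol, and CYP19A1 (aromatase) turns androgens into oestrogens. ALDH1A1 oxidizes retinal to retinoic acid, a signal known for its part in the start of meiosis in the fetal ovary. The oocyte itself is joined to granulosa cells by fine projections, and those cells can remain attached when it is collected.

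Libraries held 7832458 to 23739871 counts. Levels are given as CPM, the count relative to the library total after TMM scaling. Libraries also differed in the share of reads that mapped to the genome, under 80% or at least 80% in a supplement of the study. Wild-type FGOs 1 to 8 and all double mutants were under 80%, and wild-type FGOs 9 to 18 and all Dnmt3L mutants reached it. Of the Dnmt3a mutants 3 were under it and 5 not, and of the MII oocytes 3 and 7. Among genes with 1 to 10 counts in a library, 61.7% to 71.8% had an even count, so counts are not taken as independent molecules. Intervals from counts cover counting error only and treat each count as independent, so they are likely too narrow. Bounds for groups with no count are likely too high for the same reason.

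In the mm10 assembly, the genes lie at chr8:25806555-25815982 on the plus strand (Star), chr9:58006411-58027023 on the plus strand (Cyp11a1), chr19:46667165-46672974 on the minus strand (Cyp17a1), chr3:98852194-98859794 on the minus strand (Hsd3b1), chr11:101078411-101080527 on the plus strand (Hsd17b1), chr9:54165937-54268110 on the minus strand (Cyp19a1) and chr19:20601961-20643462 on the plus strand (Aldh1a1). The study's methods give more than 1 read length, and the shortest, 53 bases, was used to look for shared sequence. Of the 53-base stretches of the annotated Hsd3b1 transcripts, 4.27% also occur in another gene, Gm12431 and Hsd3b6 before the others. The share was 2.76% for Aldh1a1, all in its neighbour Aldh1a7, and 1.94% for Cyp11a1, all in Gm17322, whose exons overlap it on the same strand over 145 bases. It was 0 for Star, Cyp17a1, Hsd17b1 and Cyp19a1. The close relatives were counted apart. Mean Hsd3b6 was 1.34 ± 0.666 CPM in wild-type FGOs (SD, n = 18), and 1.14 ± 0.702 CPM (SD, n = 8) in double mutants. Aldh1a7 had a mean of 0.191 ± 0.141 CPM (SD, n = 18) in wild-type FGOs.

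RefSeq start sites on the same assembly (GRCm38.p6) were at hand for 4 of the 7 genes. The 250 bases before the start are shown for the genes most closely correlated across oocytes, Hsd3b1, Aldh1a1 and Cyp11a1, and for Cyp19a1, whose level differed least between groups, at the starts that lie within the gene as the files delimit it. Cyp19a1 has 2 such starts, and a count per gene does not tell which was used. Capitals mark matches on either strand to GATAA, the motif of GATA factors, and TATAAA, the TATA box. The letters AAGGTCA (a motif of NR5A nuclear receptors) and TGACGTCA (a cyclic AMP response element) were searched too.
Hsd3b1, chr3:98859795-98860044, minus strand: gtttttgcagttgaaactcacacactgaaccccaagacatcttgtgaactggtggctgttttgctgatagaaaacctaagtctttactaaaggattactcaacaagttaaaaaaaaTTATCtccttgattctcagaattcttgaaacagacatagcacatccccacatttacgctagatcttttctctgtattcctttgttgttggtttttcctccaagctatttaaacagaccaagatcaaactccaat
Aldh1a1, chr19:20601718-20601967, plus strand: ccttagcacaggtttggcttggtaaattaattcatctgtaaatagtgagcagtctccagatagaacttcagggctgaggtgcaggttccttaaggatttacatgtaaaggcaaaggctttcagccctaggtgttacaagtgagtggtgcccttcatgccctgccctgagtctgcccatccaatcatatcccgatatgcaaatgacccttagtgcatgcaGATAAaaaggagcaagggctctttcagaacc
Cyp11a1, chr9:58014702-58014951, plus strand: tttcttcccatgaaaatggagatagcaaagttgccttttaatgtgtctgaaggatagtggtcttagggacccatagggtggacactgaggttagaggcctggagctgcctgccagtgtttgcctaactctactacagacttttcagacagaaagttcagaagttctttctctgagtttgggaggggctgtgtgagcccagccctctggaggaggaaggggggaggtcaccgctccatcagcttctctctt
Cyp19a1, chr9:54193744-54193993, minus strand: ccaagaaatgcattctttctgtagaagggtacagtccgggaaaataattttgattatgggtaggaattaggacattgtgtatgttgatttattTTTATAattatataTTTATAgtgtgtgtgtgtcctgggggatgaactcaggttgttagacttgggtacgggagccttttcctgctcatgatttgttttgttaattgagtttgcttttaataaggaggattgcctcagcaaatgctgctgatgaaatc
Cyp19a1, chr9:54228915-54229164, minus strand: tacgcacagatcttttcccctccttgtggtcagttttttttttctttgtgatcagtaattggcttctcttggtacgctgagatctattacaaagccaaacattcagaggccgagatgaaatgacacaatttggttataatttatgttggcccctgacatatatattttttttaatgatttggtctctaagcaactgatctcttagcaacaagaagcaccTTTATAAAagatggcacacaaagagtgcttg
Hsd3b1 held the GATA letters at 134 to 130 bases before its start, read on the opposite strand, and Aldh1a1 at 31 to 27 bases before it. GATAA occurs in 22.6% of 32851 promoter windows of this length, and TATAAA, found only in the windows of Cyp19a1 among those shown, in 12.4%. The match at Cyp19a1 nearest to its start lies 29 to 24 bases before it and overlaps a match on the other strand. AAGGTCA occurs in 4.08% and TGACGTCA in 1.55% of the windows, and neither was found in the windows shown. A match is a description of these letters and not a site of binding.

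The first question was how much of each gene wild-type FGOs held. All 18 wild-type FGOs had counts of 6 of the genes. Compared per kilobase of exon, Hsd3b1 had the highest mean level (8.82 CPM per kilobase), followed by Cyp19a1 (5.47), Aldh1a1 (4.74), Cyp11a1 (2.59), Hsd17b1 (2.54), Star (0.753) and Cyp17a1 (0.556). The levels of 6 of the genes varied widely between oocytes of 1 genotype and stage. The coefficient of variation over the 18 wild-type FGOs was 66.5% for Hsd3b1, 87.0% for Cyp11a1, 90.5% for Star and 74.2% for Aldh1a1, against 25.4% for Cyp19a1.

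**Figure D1:**
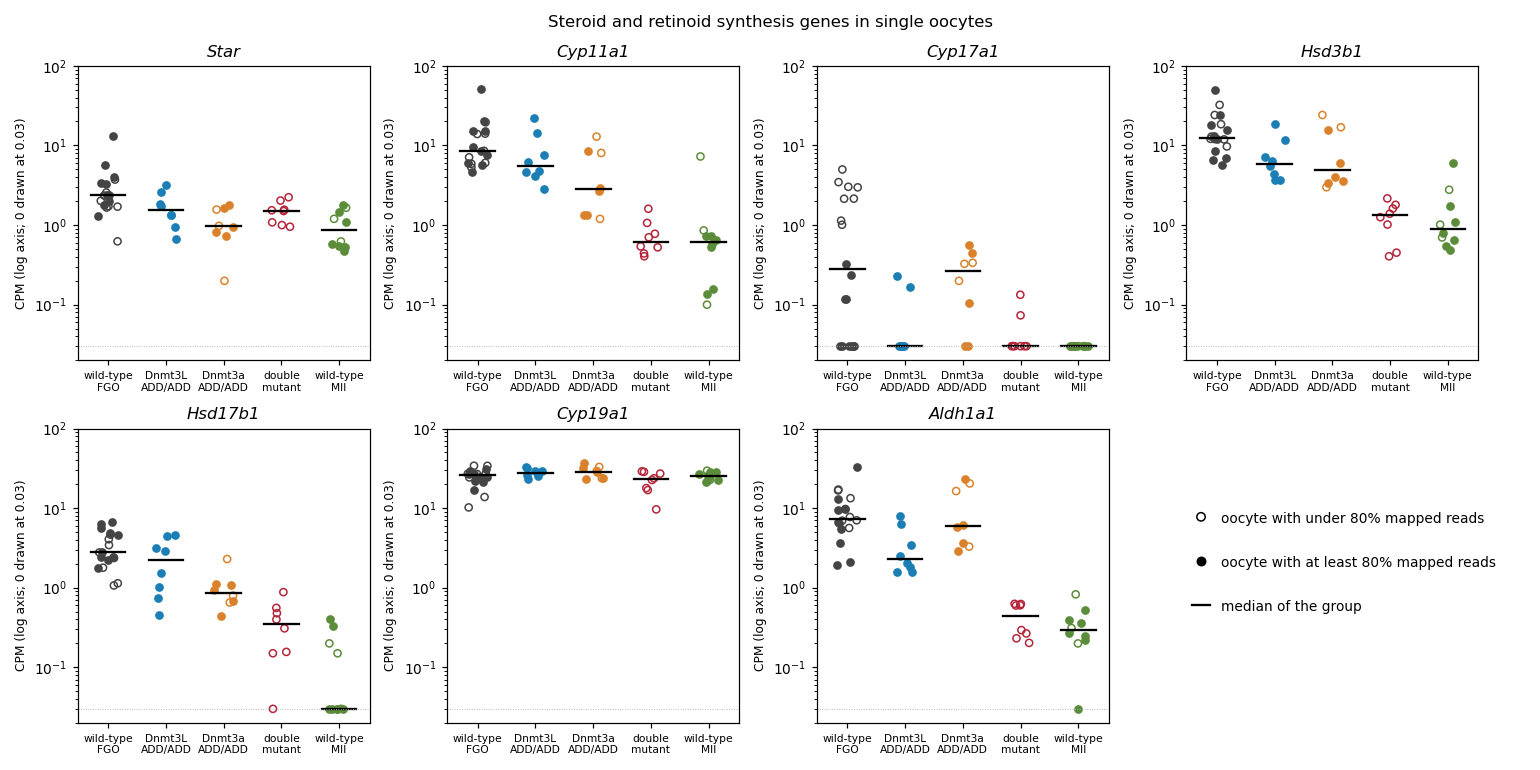
Level of each gene in each oocyte (CPM, log axis, 0 drawn at 0.03) by group, with the median as a bar and open points for oocytes with under 80% mapped reads. Cyp19a1 stays between 9.63 and 37.0 CPM in all groups, while Aldh1a1 falls from a median of 7.37 CPM in wild-type FGOs to 0.445 in double mutants and 0.291 in MII oocytes.

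Star, which brings cholesterol to the first enzyme, was a gene of low level. Its CPM ran from 0.623 to 13.3 (median 2.35) in wild-type FGOs, 0.662 to 3.19 (median 1.53) in Dnmt3L mutants, 0.199 to 1.77 (median 0.958) in Dnmt3a mutants, 0.952 to 2.23 (median 1.51) in double mutants and 0.467 to 1.80 (median 0.855) in MII oocytes. All groups overlapped with the wild type. The highest oocyte was wild-type FGO 11 with 234 counts.

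Cyp11a1, the gene of side-chain cleavage, parted more clearly. Its CPM ran from 4.62 to 50.9 (median 8.51) in wild-type FGOs, 2.86 to 22.2 (median 5.51) in Dnmt3L mutants, 1.19 to 12.9 (median 2.80) in Dnmt3a mutants, 0.405 to 1.60 (median 0.620) in double mutants and 0.0997 to 7.27 (median 0.616) in MII oocytes. Every double mutant lay below every wild-type FGO and every Dnmt3L mutant, and 7 of 8 lay below every Dnmt3a mutant. In MII oocytes 9 of 10 lay below all wild-type FGOs, and MII oocyte 6 stood apart with 97 counts.

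Hsd3b1, which makes progesterone, was the most abundant of the genes per length in wild-type FGOs. Its CPM ran from 5.63 to 49.9 (median 12.6) there, 3.66 to 18.8 (median 5.93) in Dnmt3L mutants, 2.98 to 24.1 (median 4.98) in Dnmt3a mutants, 0.405 to 2.16 (median 1.32) in double mutants and 0.490 to 5.98 (median 0.899) in MII oocytes. The double mutants did not overlap with any other FGO group, and their highest count was 31 against a lowest of 95 in the wild type. MII oocyte 8 had 88 counts.

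Cyp17a1, the gene of androgen synthesis, differed widely between wild-type FGOs. Wild-type FGOs 1 to 8 had 16 to 75 counts (1.01 to 4.99 CPM), and FGOs 9 to 18 had 0 to 5 counts, so that the 2 sets of wild-type oocytes did not overlap. These are also the sets with under 80% and at least 80% mapped reads. None of the other 6 genes passed the test between the sets (edgeR's quasi-likelihood test), where 3.06% of 14664 genes were called lower with at least 80% mapped reads. Whether the sets differ in mothers, in collection or in library preparation is not given in the sources used here. Dnmt3L mutants had 4 counts in all, double mutants 3, Dnmt3a mutants 27 (at most 9 in an oocyte), and the 10 MII oocytes 0. Cyp17a1 passed the filter on low counts through wild-type FGOs 1 to 8 alone, the oocytes where it is high, so it had to differ. It is therefore described by its counts, without a test, and is left out of the counts of genes below.

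Hsd17b1, which makes oestradiol, had 1.07 to 6.77 CPM (median 2.80) in wild-type FGOs, 0.456 to 4.58 (median 2.21) in Dnmt3L mutants, 0.443 to 2.29 (median 0.869) in Dnmt3a mutants, 0 to 0.879 (median 0.353) in double mutants and 0 to 0.408 (median 0) in MII oocytes. Both the double mutants and the MII oocytes lay wholly below the wild-type FGOs. Only 4 of 10 MII oocytes had a count, and none had more than 6.

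Aldh1a1, the retinoic acid gene, had 1.91 to 32.7 CPM (median 7.37) in wild-type FGOs, 1.59 to 7.87 (median 2.28) in Dnmt3L mutants, 2.89 to 23.1 (median 5.91) in Dnmt3a mutants, 0.202 to 0.627 (median 0.445) in double mutants and 0 to 0.824 (median 0.291) in MII oocytes. Double mutants held at most 10 counts, below every other FGO, and MII oocytes at most 11. All 8 Dnmt3a mutants lay within the wild-type range.

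Cyp19a1, the aromatase gene, had a mean between 21.9 and 28.7 CPM in every group. Its mean was 24.7 ± 6.29 CPM (SD, n = 18) in wild-type FGOs, 28.1 ± 3.37 (SD, n = 8) in Dnmt3L mutants, 28.7 ± 5.0 (SD, n = 8) in Dnmt3a mutants, 21.9 ± 6.73 (SD, n = 8) in double mutants and 25.3 ± 2.94 (SD, n = 10) in MII oocytes. Between mutants, the double mutants were at -0.40 on the log2 scale against Dnmt3a mutants (edgeR's quasi-likelihood test, adjusted p = 0.0856). Against Dnmt3L mutants they were at -0.36 (adjusted p = 0.131), so neither difference passed. Per kilobase, Cyp19a1 was the highest of the genes in every group but wild-type FGOs, with 6.20 CPM per kilobase in Dnmt3L mutants (next Hsd3b1 with 4.12), 6.34 in Dnmt3a mutants (next Hsd3b1 with 5.15), 4.84 in double mutants (next Hsd3b1 with 0.679) and 5.61 in MII oocytes (next Hsd3b1 with 0.848).

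The comparisons of genotype asked which of these levels differed from wild-type FGOs beyond the spread between oocytes. A gene was called when the Benjamini-Hochberg adjusted p of edgeR's quasi-likelihood test over all 15726 genes was under 0.05 and the fold change over 2. In Dnmt3L mutants 1 of the 6 genes other than Cyp17a1 was lower and none was higher, against 0.591% of all genes called lower. Aldh1a1 fell by 1.57 on the log2 scale (SE 0.424, adjusted p = 0.0208, at most 0.0530 without 1 library), and 8 of 18 wild-type FGOs lay above the highest mutant. Wild-type FGOs 1 to 8 together had 72.5 times the Cyp17a1 of Dnmt3L mutants (95% counting interval 28 to 268), and wild-type FGOs 9 to 18, which share the mapped-read class of the mutant, had 2.27 times (0.70 to 9.55). With these 10 oocytes as the wild type, the Aldh1a1 difference was -1.48 with adjusted p = 0.0510, and Star passed at -1.25 (adjusted p = 0.0312). Wild-type FGO 11, the highest in Star, is among these 10. In the fit of all FGOs, Star was at -0.90 with it (adjusted p = 0.119) and at -0.59 without it (adjusted p = 0.227). Hsd3b1, at -1.14 (SE 0.383, adjusted p = 0.0652), missed the threshold in the fit of all FGOs. Over the 6 genes other than Cyp17a1, log2 differences ran from -1.57 (Aldh1a1) to 0.18 (Cyp19a1), and the median over all genes tested was -0.03.

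In Dnmt3a mutants 3 of these 6 genes were lower and none was higher, against 1.76% of all genes called lower. They were Star, Cyp11a1 and Hsd17b1. Star fell by 1.51 on the log2 scale (SE 0.370, adjusted p = 0.00433), Cyp11a1 by 1.34 (SE 0.424, adjusted p = 0.0262, at most 0.0629 without 1 library) and Hsd17b1 by 1.73 (SE 0.389, adjusted p = 0.00197). Aldh1a1, at 0.07 (95% interval -0.67 to 0.80), and Hsd3b1, at -0.77 (SE 0.370, adjusted p = 0.149), did not pass. Within the oocytes with at least 80% mapped reads (5 against 10, a comparison chosen after the data were seen), Star was at -1.76 (adjusted p = 0.0306), Cyp11a1 at -2.07 (0.0280) and Hsd17b1 at -2.19 (0.000953). Within those with under 80% (3 against 8), the adjusted p was 0.248 for Star, 0.673 for Cyp11a1 and 0.263 for Hsd17b1. Over these 6 genes the log2 differences ran from -1.73 (Hsd17b1) to 0.22 (Cyp19a1), and the median over all genes was -0.03.

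In double mutants 5 of these 6 genes were lower, all but Cyp19a1, against 1.48% of all genes called lower. Cyp11a1 fell by 4.03 on the log2 scale (SE 0.533, adjusted p = 4.90e-06) and Hsd17b1 by 3.19 (SE 0.447, adjusted p = 1.19e-05). The log2 difference was -4.48 (SE 0.543) for Aldh1a1 and -3.70 (SE 0.466) for Hsd3b1. The summed level of Cyp17a1 was 43.3 times higher in the wild type (95% counting interval 14.7 to 211), 98.9 times (33.5 to 482) in wild-type FGOs 1 to 8 and 3.09 times (0.850 to 16.9) in FGOs 9 to 18. Star had the smallest difference of the 5 (-1.07, SE 0.357, adjusted p = 0.0414). Its adjusted p ran from 0.0255 to 0.0853 when each library was left out in turn, and against wild-type FGOs 1 to 8, which share the mapped-read class of the double mutants, it was -0.47 (adjusted p = 0.648). The other 4 passed in that comparison too, with Cyp11a1 at -3.71, Hsd3b1 at -3.72, Hsd17b1 at -2.83 and Aldh1a1 at -4.59. Over these 6 genes the log2 differences ran from -4.48 (Aldh1a1) to -0.18 (Cyp19a1), and the median over all genes was -0.01. Cyp19a1 differed by -0.18 (95% interval -0.48 to 0.12, adjusted p = 0.452).

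**Figure D2:**
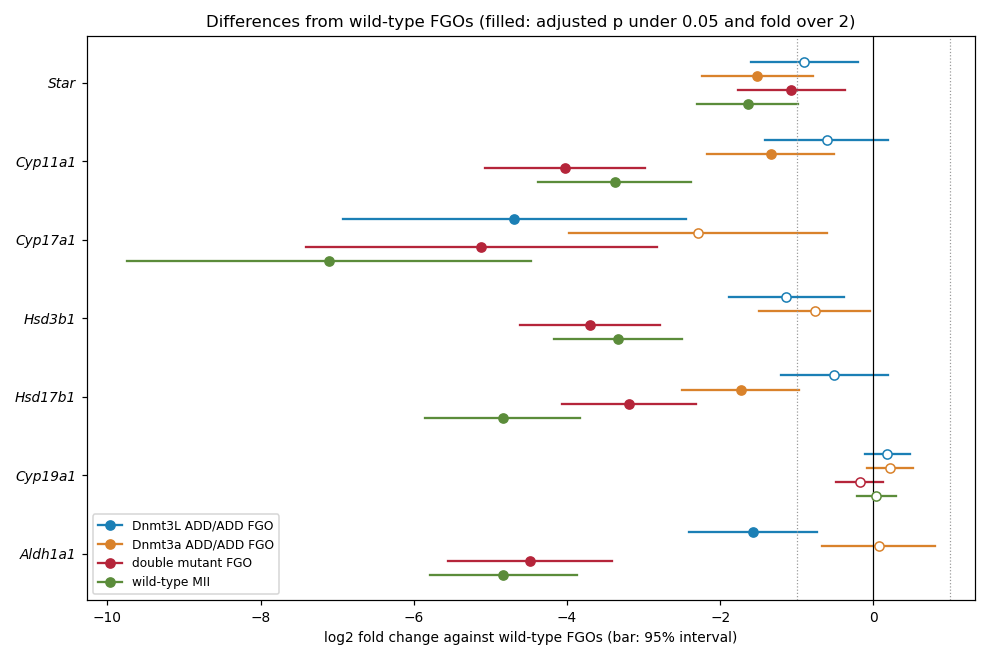
Fitted log2 fold change of each gene against wild-type FGOs with its 95% interval, for the 3 mutant groups and wild-type MII oocytes; filled points have adjusted p under 0.05 and fold over 2, and Cyp17a1 passed the filter only through wild-type FGOs 1 to 8. Cyp19a1 lies near 0 in all 4 comparisons, and Aldh1a1, Cyp11a1, Hsd3b1 and Hsd17b1 lie beyond -3 in double mutants and MII oocytes.

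Between mutants, 4 genes were lower in the double mutant than in Dnmt3L mutants (1.16% of all genes called lower) and the same 4 than in Dnmt3a mutants (1.48%). These were Aldh1a1 (-2.91 and -4.55), Cyp11a1 (-3.42 and -2.69), Hsd17b1 (-2.68 and -1.46) and Hsd3b1 (-2.56 and -2.93). Star did not pass either test (-0.17 and 0.44). The comparison with Dnmt3L mutants cannot be told apart from the class of mapped reads. No member passed between Dnmt3a and Dnmt3L mutants, where 0 of 15726 genes were called and 2 genes, or 0.0127% called higher, without a minimum fold change (edgeR's quasi-likelihood test). At an unadjusted p under 0.05, Aldh1a1 was higher in Dnmt3a mutants by 1.64 (SE 0.471, adjusted p = 0.183) and Hsd17b1 was lower by 1.22 (SE 0.433, adjusted p = 0.444), the other 5 members having larger p. The single mutants and the double mutant share their wild-type controls, so their differences from the wild type are not independent.

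The contrast of the 4 genotypes asked whether the double mutant differed from the sum of both single mutants on the log2 scale. With no minimum fold change, 4 of the 6 genes other than Cyp17a1 lay below that sum, where 16.3% of all genes did. They were Aldh1a1 (-2.98, SE 0.687, adjusted p = 0.000923), Cyp11a1 (-2.08, SE 0.678, adjusted p = 0.0149), Hsd3b1 (-1.80, SE 0.599, adjusted p = 0.0172) and Cyp19a1 (-0.58, SE 0.234, adjusted p = 0.0486). For Cyp19a1 no mutant passed the test against the wild type by itself. Star lay above the sum at 1.34 (SE 0.548, adjusted p = 0.0514) and missed the threshold. Since the single mutants and the double mutant differ in mapped-read class, this contrast and the class cannot be told apart in full.

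MII oocytes were compared with wild-type FGOs in 1 model fitted to 52 libraries and 15784 genes, to ask how the genes differ after maturation. Again 5 of the 6 genes other than Cyp17a1 were lower, all but Cyp19a1, against 9% of all genes called lower. The largest fitted difference of a gene with counts in MII was that of Hsd17b1 (-4.84, SE 0.515, adjusted p = 6.20e-11), next to Aldh1a1 (-4.83, SE 0.489, adjusted p = 1.28e-11). Cyp11a1 (-3.38, and -4.63 without MII oocyte 6), Hsd3b1 (-3.33) and Star (-1.64) followed. Cyp17a1 had no count in MII oocytes and was at least 47.9-fold higher in wild-type FGOs, with a floor of 3 counts over the group. Over the other 6 genes the fitted differences ran from -4.84 (Hsd17b1) to 0.04 (Cyp19a1). Cyp19a1 differed by 0.04 (95% interval -0.22 to 0.29). Among libraries with under 80% mapped reads (3 MII oocytes, MII oocyte 6 among them), Cyp11a1 was at -1.84 (adjusted p = 0.132) and Star at -0.82 (adjusted p = 0.255), and among those with at least 80% they were at -4.86 (adjusted p = 1.27e-06) and -2.10 (adjusted p = 0.00143).

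The sum of 6 of the genes, all but Cyp19a1, was 20.02 to 154 CPM in wild-type FGOs, 12.4 to 52.5 in Dnmt3L mutants, 8.65 to 57.6 in Dnmt3a mutants, 2.09 to 6.48 in double mutants and 2.18 to 12.7 in MII oocytes. The double mutants overlapped with the MII oocytes and lay below every other FGO. In RNA from an oocyte with any cell left on it, fewer such cells and less RNA of these genes per cell cannot be told apart.

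The next question was whether the genes go together from oocyte to oocyte. Correlations of log2 CPM were computed over the 18 wild-type FGOs, which share a genotype and a stage but fall into 2 classes of mapped reads, and they are given as descriptions. Hsd3b1 and Aldh1a1 had Pearson's r = 0.940 and Spearman's rho = 0.913, Cyp11a1 and Hsd3b1 0.920 and 0.853, Cyp11a1 and Aldh1a1 0.835 and 0.717, and Star and Cyp11a1 0.792 and 0.754. Among the other 15725 tested genes, Hsd3b1 had the highest correlation with Cyp11a1, and Aldh1a1 the highest with Hsd3b1. Thus 3 enzymes of different steps, 1 of them of retinoid synthesis, were high and low in the same oocytes. Cyp19a1 had r of 0.217 to 0.352 with the other members but Cyp17a1.

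**Figure D3:**
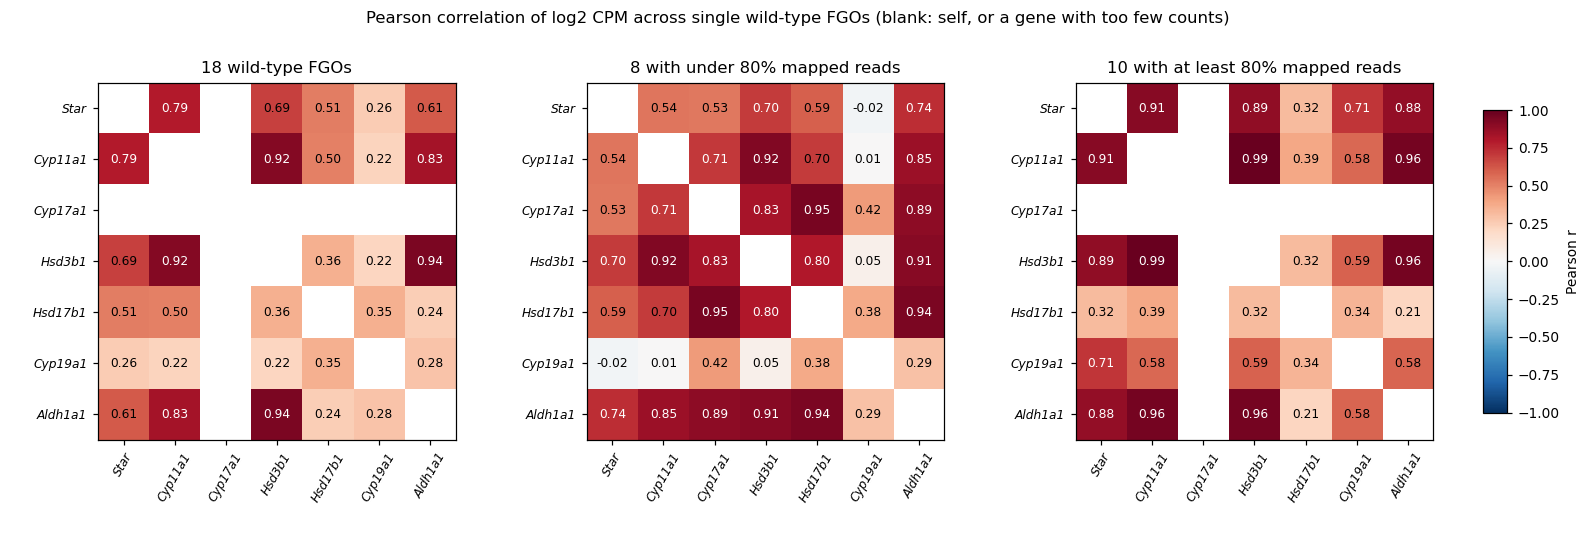
Pearson correlation of log2 CPM for each pair of genes over all 18 wild-type FGOs, the 8 with under 80% and the 10 with at least 80% mapped reads; blank cells are self pairs or a gene with too few counts. Cyp11a1, Hsd3b1 and Aldh1a1 stay together in both classes, whereas Hsd17b1 joins them among the 8 and not among the 10.

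Within the classes the 3 genes stayed together. Cyp11a1 and Hsd3b1 had r = 0.924 over the 8 oocytes with under 80% and 0.986 over the 10 with at least 80% mapped reads, and Hsd3b1 and Aldh1a1 0.908 and 0.958. Cyp19a1 had r of 0.576 to 0.712 with Star, Cyp11a1, Hsd3b1 and Aldh1a1 over the 10, and of -0.0239 to 0.291 over the 8. For Hsd17b1 the classes were apart as well, with r = 0.938 with Aldh1a1 over the 8 and 0.213 over the 10. Cyp17a1, which could be followed only over the 8, had r = 0.951 with Hsd17b1 and 0.894 with Aldh1a1. In the mutants, Cyp11a1 and Hsd3b1 had r = 0.95 over 8 Dnmt3L mutants and 0.970 over 8 Dnmt3a mutants. Star and Hsd17b1 ran against each other in Dnmt3L mutants (r = -0.853, n = 8) and not in wild-type FGOs (r = 0.512, n = 18, and 0.318 over the 10 with at least 80% mapped reads, the class of the mutants). Dnmt3L mutants 4 and 5 had the smallest libraries of all (7832458 and 8757153 counts). They were the highest of their group in Star, and held 8 and 4 counts of Hsd17b1. Many pairs were looked at, and the difference of this pair from the wild type was not tested. In double mutants and MII oocytes most of these genes were at a few counts, and their correlations are not read.

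**Figure D4:**
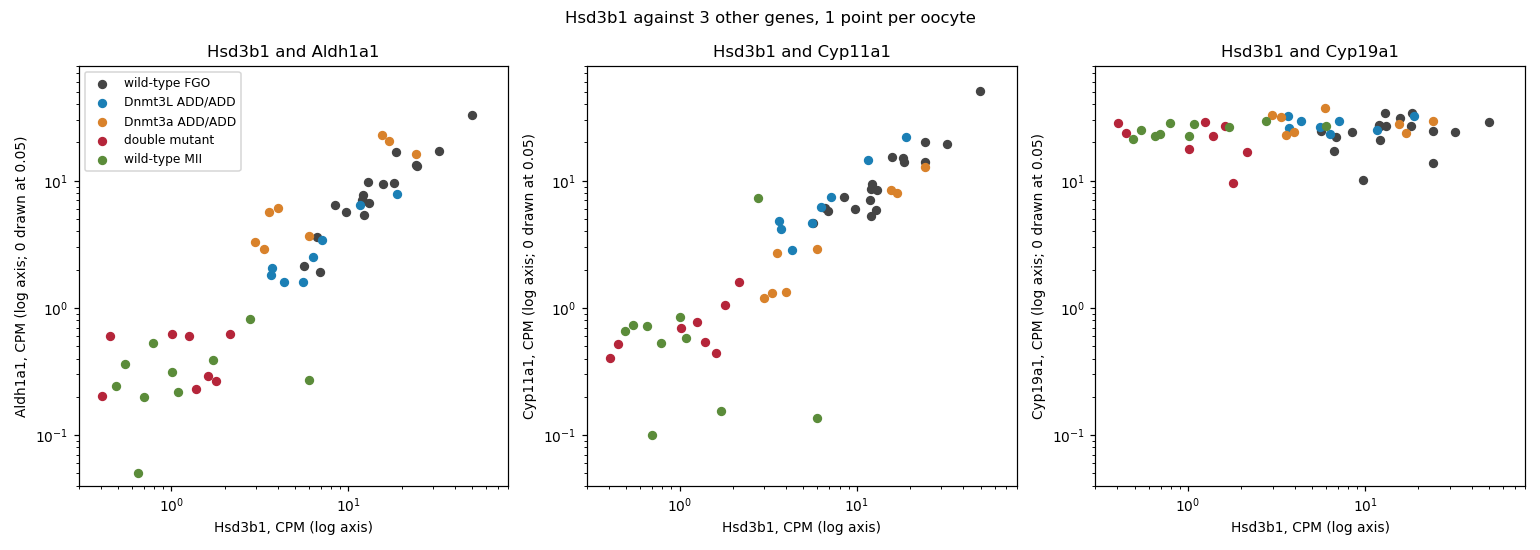
Hsd3b1 (CPM, log axis) against Aldh1a1, Cyp11a1 and Cyp19a1 (CPM, log axes), 1 point per oocyte, coloured by group. For Aldh1a1 most Dnmt3a mutants lie above the wild-type FGOs of like Hsd3b1 level (mean log2 ratio 0.10 against -0.84), and Cyp19a1 lies between 9.63 and 37.0 CPM as Hsd3b1 ranges from 0.405 to 49.9 CPM.

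The balance between the genes was described per oocyte by their ratios. The log2 ratio of Aldh1a1 to Hsd3b1 was -0.84 ± 0.38 (SD, n = 18) in wild-type FGOs, -1.19 ± 0.32 (n = 8) in Dnmt3L mutants and 0.10 ± 0.54 (n = 8) in Dnmt3a mutants. The log2 ratio of Cyp11a1 to Aldh1a1 was 0.36 ± 0.56 in the wild type (0.74 ± 0.38 over the 10 with at least 80% mapped reads, the class of all Dnmt3L mutants), 1.23 ± 0.24 in Dnmt3L mutants and -1.15 ± 0.60 in Dnmt3a mutants. All 8 Dnmt3L mutants (0.83 to 1.52) lay above all 8 Dnmt3a mutants (-2.15 to -0.32) in this ratio. These ratios were chosen after the levels were seen and are given without a test.

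Genes that followed each member over the 18 wild-type FGOs were named by the highest Pearson correlation of log2 CPM. The nearest to Star were the smooth muscle actin gene Acta2 (0.908), Vim (0.877), which codes for vimentin, and the collagen gene Col3a1 (0.839). Acta2 was also the nearest non-member to Cyp11a1 (0.853), before Zfp36l1 (0.845) and Pcolce (0.821). The nearest to Hsd3b1 were Clu (0.925), which codes for clusterin, Cpe (0.855) and Akr1cl (0.854), and to Aldh1a1 Clu (0.942) and Ephx1 (0.893). Clu had a mean of 3.39 CPM in wild-type, 0.257 in double mutants and 1.74 in MII oocytes. Acta2 had a mean of 1.59 CPM in wild-type FGOs and no count in double mutants and MII oocytes. Vim had a mean of 2.24 CPM in wild-type FGOs, 0.12 in double mutants and 2.9 in MII oocytes, so it was not lower in MII oocytes. The other genes named here had lower means in both groups.

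The other members had other company. Cyp17a1 was nearest to Gm26558 (0.945), Gm25776 (0.944) and the small nucleolar RNA gene Snora23 (0.932), and these correlations hold the difference between the mapped-read classes. Hsd17b1 was nearest to Sema3g (0.794), Apoa4 (0.784) and Gm9923 (0.780). The nearest to Cyp19a1 were Plekhb1 (0.888), Eya4 (0.888) and Ufsp2 (0.883), whose mean levels in wild-type FGOs (15.4, 6.05 and 46.5 CPM) were close to those in MII oocytes (17.3, 6.28 and 46.1 CPM).

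The rest of the pathways moved less. Of 15 other genes of steroid enzymes that were tested, none was called in any mutant against the wild type, and 2 were lower in MII oocytes, Akr1c14 (-2.24, adjusted p = 3.93e-07) and Hsd17b10 (-1.09, adjusted p = 2.39e-05). Among 19 genes of cholesterol supply and of the control of steroid synthesis, Nr5a1, the nuclear receptor SF-1 that drives steroid genes and also 1 of the theca markers below, was lower in double mutants (-1.78, adjusted p = 0.00445). Nr5a1 and Abca1, a cholesterol exporter, were lower in MII oocytes (-1.94 and -1.23). None of the 19 was called in the single mutants. Among 24 genes of cholesterol synthesis, Pmvk was lower in MII oocytes (-2.36), and none of the 24 was called in the single mutants.

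Of 19 other retinoid genes tested, the retinol dehydrogenase gene Adh1 was lower in double mutants and MII oocytes. It had 2 to 56 counts in wild-type FGOs and no count in either of those groups, so it was at least 34.4-fold higher in wild-type than in double mutants and at least 38.1-fold higher than in MII oocytes. Rxrb, a retinoid X receptor gene, was lower in Dnmt3a mutants (-1.06, adjusted p = 0.0236), and none was called in Dnmt3L mutants. Between the wild-type classes Rxrb differed too (-1.29, lower with at least 80% mapped reads).

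Some markers of cells around the oocyte were lower too, mostly in double mutants and MII oocytes, while others were not called and a few were higher. Of 15 granulosa markers, 2 were lower in Dnmt3L mutants (Inha and Inhba), 4 in Dnmt3a mutants, 8 in double mutants and 11 in MII oocytes, and none was higher. Of 7 stroma and smooth muscle markers tested, 4 were lower in double mutants and 4 in MII oocytes (Acta2, Col1a1, Col1a2 and Col3a1 in both), and of 7 theca and interstitial markers 3 and 3. In Dnmt3a mutants Acta2 was lower and Col1a2 higher, and of the theca markers Ephx2 was lower. The markers Lum, Acta2 and Tcf21 were at 0 in double mutants and MII oocytes, the granulosa markers Amh and Inhbb at 0 in MII oocytes, and the theca marker Insl3 at 0 in wild-type FGOs and every other group but the Dnmt3a mutants. The summed level of the granulosa list overlapped between all groups: the 15 granulosa markers came to 284 to 421 CPM in wild-type FGOs, 236 to 327 and 277 to 369 in Dnmt3L and Dnmt3a mutants, 285 to 303 in double mutants and 279 to 338 in MII oocytes. Serpine2 (187 CPM in wild-type FGOs), Nr5a2 (86.3) and Gja1 (16.2) made up most of that sum. The part of such cells in the differences of the members was not tested.

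The 10 theca and interstitial markers summed to 45.9 to 87.2 CPM in wild-type and 50.1 to 83.4 in double mutants, most of it from Scarb1 (29.9), Fdx1 (15.2) and Ptch1 (6.01). The 11 stroma and smooth muscle markers summed to 223 to 452 and 215 to 302 CPM, nearly all from Myh11 (331 CPM), ahead of Col3a1 (2.29) and Pdgfra (1.99). The 8 cumulus markers summed to 0.937 to 6.18 CPM in wild-type FGOs and 1.67 to 6.97 in double mutants, led by Ptgs2 (1.30), Has2 (0.934) and Slc38a3 (0.818), of which Slc38a3 was lower and Has2 higher in double mutants, Has2 higher in Dnmt3a mutants and Slc38a3 lower in MII oocytes. Of the luteal (Prlr, Ptgfr and Sfrp4 the highest) and the endothelium and blood markers (Pecam1, Tie1 and Kdr), none was called in these comparisons, and of the surface epithelium markers (Upk3b, Krt8 and Lgr5) Krt7 was lower in MII oocytes. The 16 oocyte markers, led by Gdf9, Padi6 and Bmp15, were present in every group, with 2 lower in MII oocytes (Zp2 and Zp3) and none called in the mutants.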

How the data were processed

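Single-oocyte RNA-seq libraries (18, 8, 8 and 8 FGOs of the 4 genotypes and 10 wild-type MII oocytes) were grouped by their labels. The authors aligned the paired reads to mm10 with STAR, counted them with featureCounts or HTSeq, and deposited raw counts of reads per gene, without normalization; the annotation release, the strand setting and the treatment of reads with several positions are not given in the sources used here. Reads of overlapping genes therefore could not be told apart. The deposited allelic tables of 3 embryos were not used here.

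Tests used edgeR 4.0.16 under R 4.3.3. Genes were filtered by filterByExpr (minimum count 10), libraries were scaled by TMM, and p-values of the quasi-likelihood test were adjusted by the Benjamini-Hochberg method over all genes tested, with calls at adjusted p under 0.05 and fold change over 2. FGO genotypes were compared in 1 fit of 42 libraries (biological coefficient of variation 25.2%) and MII oocytes in 1 fit of 52 (23.8%). Intervals of fitted differences are 1.96 SE to each side. CPM used TMM-scaled totals, and correlations used log2 CPM with a prior count of 2. Where a group held 0 counts, a floor of 3 counts over the group was used, and counting intervals are exact (Clopper-Pearson) 95% intervals. Both take counts as independent. Sequences and start sites came from RefSeq (GRCm38.p6), and shared 53-base stretches from GENCODE transcripts of the same assembly. The tests were checked on simulated data with the same spread for every gene and no mapped-read class. That check does not cover genes as variable as most of the members. DESeq2 1.42.0, edgeR's exact test, RLE normalization, no filter, other sets of libraries, a term for the mapped-read class, a block for the replicate number and leaving out each library in turn were the alternatives. Comparisons of Dnmt3a ADD/ADD FGOs within a class of mapped reads were added after the data were seen.

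Within each group all pairs of libraries differed by more than counting noise (lowest chi-square per degree of freedom 5.39). Named genes were all 7 members, list genes called in a comparison (at most the 5 with the lowest p), the 3 genes closest to each member, the 3 highest markers of each list, and near-identical genes. Some genes that this rule would name are not reported here. Other marker genes named were chosen after their values were seen. The members and lists were chosen with earlier results of these data known.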

Additional observations from a re-analysis of the deposited data

Results flagged for a closer look

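In 27 groups of 8 or 10 oocytes, each a gene in a genotype or stage, the highest or lowest oocyte was compared with the others by Dixon's ratio, and 3 stood apart, where chance flags about 1 in 20 groups. Cyp11a1 was at 7.27 CPM in MII oocyte 6, against 0.855 in the next highest, and the MII oocytes fell from 97 to 11 counts between them. Hsd3b1 was at 5.98 CPM in MII oocyte 8, against 2.77 in the next, which was MII oocyte 6. Hsd17b1 was at 2.29 CPM in Dnmt3a ADD/ADD FGO 8, against 1.12 in the next, and the same oocyte was the highest of its group in Cyp11a1 and Hsd3b1.

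The double mutant lay below the sum of both single mutants on the log2 scale (edgeR's quasi-likelihood test of the contrast) for Aldh1a1 (-2.98, adjusted p = 0.000923), Cyp11a1 (-2.08, adjusted p = 0.0149), Hsd3b1 (-1.80, adjusted p = 0.0172) and Cyp19a1 (-0.58, adjusted p = 0.0486). The double mutant FGOs were lower than both single mutants in 8 of 8 oocytes for Aldh1a1 and Hsd3b1. The part of the mapped-read class in these values was not tested.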

How the results depend on the processing

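Outside the leave-one-out fits, 287 values of single genes kept their direction and their side of the threshold under the alternatives, 16 no longer passed, 9 newly passed and 3 changed sign. The sign changes were all of Aldh1a1 in Dnmt3a ADD/ADD FGOs, never past the threshold: -0.0488 against wild-type FGOs with under 80% mapped reads, -0.13 within at least 80%, and -0.19 with the replicate block. Counts here are over all 7 genes, Cyp17a1 included. The count of genes lower in Dnmt3L ADD/ADD FGOs went from 2 to 1 with the wild-type FGOs of at least 80% mapped reads, where Cyp17a1 was not tested, and to 1 with the class as a covariate; in Dnmt3a ADD/ADD FGOs it went from 3 to 1 within under 80%, with fewer oocytes. The median correlation of the 21 pairs was 0.317 over the 18 wild-type FGOs (6 of the pairs hold Cyp17a1, whose class difference enters them), 0.701 over those with under 80% and 0.45 over those with at least 80% mapped reads.

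With each library left out, the counts of lower genes, Cyp17a1 included, ran from 1 to 3 (Dnmt3L ADD/ADD), 2 to 4 (Dnmt3a ADD/ADD), 5 to 6 (double mutant) and 5 to 6 (MII). Since Cyp17a1 had to differ, they are not to be set beside the counts over 6 genes given earlier. Without any 1 of wild-type FGOs 1 to 8, Cyp17a1 was no longer tested, and this alone takes it out of the count. Star in double mutant FGOs (-0.76 to -1.08) no longer passed without wild-type FGO 11, 13, 14, 17 or 18 or double mutant FGO 1, 2, 3, 4, 6 or 7. Aldh1a1 in Dnmt3L ADD/ADD FGOs (-1.46 to -1.48) no longer passed without mutant 6 or 7, and Cyp11a1 in Dnmt3a ADD/ADD FGOs (-1.20 to -1.27) without mutant 1, 5, 6 or 7. Hsd3b1 newly passed in Dnmt3L ADD/ADD FGOs (-1.19 to -1.46) without wild-type FGO 15 or mutant 4, and in Dnmt3a ADD/ADD FGOs (-1.14) without mutant 8. The fitted Cyp17a1 difference in Dnmt3a ADD/ADD FGOs (-2.38) crossed the threshold without wild-type FGO 9, 10, 11, 12, 17 or 18. Those oocytes had no Cyp17a1 count, so leaving any of them out raises the wild-type mean, and the crossing is not read as a result. Aldh1a1 in Dnmt3a ADD/ADD FGOs lay between -0.23 and 0.28, and Cyp19a1 in MII oocytes between -0.0126 and 0.0828.

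Replicate numbers only name oocytes: the correlation of same-numbered libraries' deviations ran from -0.518 to 0.471 between wild-type and double mutant FGOs. The replicate block keeps libraries 1 to 8 of each FGO group. With it the genes lower, Cyp17a1 included, were 3, 2 and 5 in the Dnmt3L, Dnmt3a and double mutants. In MII oocytes 5 were lower (libraries 1 to 10, Cyp17a1 not tested). Hsd17b1, Cyp17a1, Aldh1a1 and Cyp11a1 in double mutant FGOs and MII oocytes rest on a few counts, where a change between low levels was not detectable at this depth. The median was 6 and 4 counts for Aldh1a1, and 8 in both groups for Cyp11a1.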
